A study of Mus musculus with 2 samples.

Results

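The genes described here are 40 cell cycle and DNA replication genes, given as a list of symbols with no threshold on a measured value, among 55536 annotated genes, of which 22028 are protein-coding. They were measured by total RNA-seq in the left cerebral cortex of female B6CASTF1/J mice, first-generation hybrids of the C57BL/6J and CAST/EiJ strains, at 4 days of age. The data formed 1 group of 2 libraries, biological replicates 1 and 2, and nothing was contrasted between groups. The labels give the libraries separate biosamples and different animal numbers but the same donor identifier, and each library started from 300 ng of RNA. Levels are given in TPM, a transcript abundance that scales reads by transcript length, so that genes can be compared with each other. Each library had tables from 2 quantifiers, and values are from the first unless the second table is named.

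A dividing cell passes from G1 through DNA synthesis (S phase) and G2 to mitosis. D cyclins with Cdk4 or Cdk6 start the phosphorylation of the retinoblastoma protein Rb1, which frees E2F transcription factors to turn on cyclin E and the replication genes. The Mcm helicase and the Pcna clamp then serve DNA synthesis, and A and B cyclins with Cdk1 drive entry into mitosis, where the Aurora and Polo-like kinases and the spindle checkpoint act. Cdk inhibitors such as Cdkn1b and Cdkn2d hold the cycle back and are known from neurons that have stopped dividing. In the mouse cortex around birth most neurons have left the cycle, while glial precursors and the remaining progenitors divide.

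The gene tables held 29310517 rounded expected counts in replicate 1 and 28844648 in replicate 2, so 3 counts, the limit that a count of 0 allows, correspond to 0.102 and 0.104 ppm. Molecular identifiers are not mentioned for these reads, so intervals and this limit cover counting error only. Markers of cortex were present in both libraries: Tbr1 was at 58.49 and 64.29 TPM and Emx1 at 21.21 and 20.42 TPM. The libraries differed in markers of neighbouring tissue. Choroid plexus and ependyma markers summed to 220 TPM in replicate 1 and 7.11 TPM in replicate 2, and blood markers to 327 and 41.7 TPM. Radial glia markers summed to 849 and 812 TPM, and those of oligodendrocyte precursors to 68.9 and 80.7 TPM. Whether a level in bulk tissue reflects the number of cells that express a gene or the RNA per cell cannot be told apart.

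All 40 genes were detected, at 1 TPM or more in both libraries, against 27.6% of annotated and 59.6% of protein-coding genes. At 2 TPM or more in both libraries, 38 were still counted. The levels were low: the median was 6.28 TPM in replicate 1 and 6.47 TPM in replicate 2, and over the genes' mean levels it was 6.81 TPM, against 17.1 TPM for 13124 detected nuclear protein-coding genes. Together they held 0.107% and 0.105% of the TPM of nuclear protein-coding genes, and 24465 and 24015 counts. The sum was unevenly spread. Cdk4 and Ccnd2 took 33.1% of it, and the 5 highest genes (Cdk4, Ccnd2, Pcna, Cdkn2d and Cdkn1b) took 51.4%. By mean level, 1 gene was above 100 TPM, 5 lay between 20 and 100 TPM, 8 between 10 and 20 TPM, 10 between 5 and 10 TPM, 15 between 2 and 5 TPM, and 1, Bub1, between 1 and 2 TPM.

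**Figure D1:**
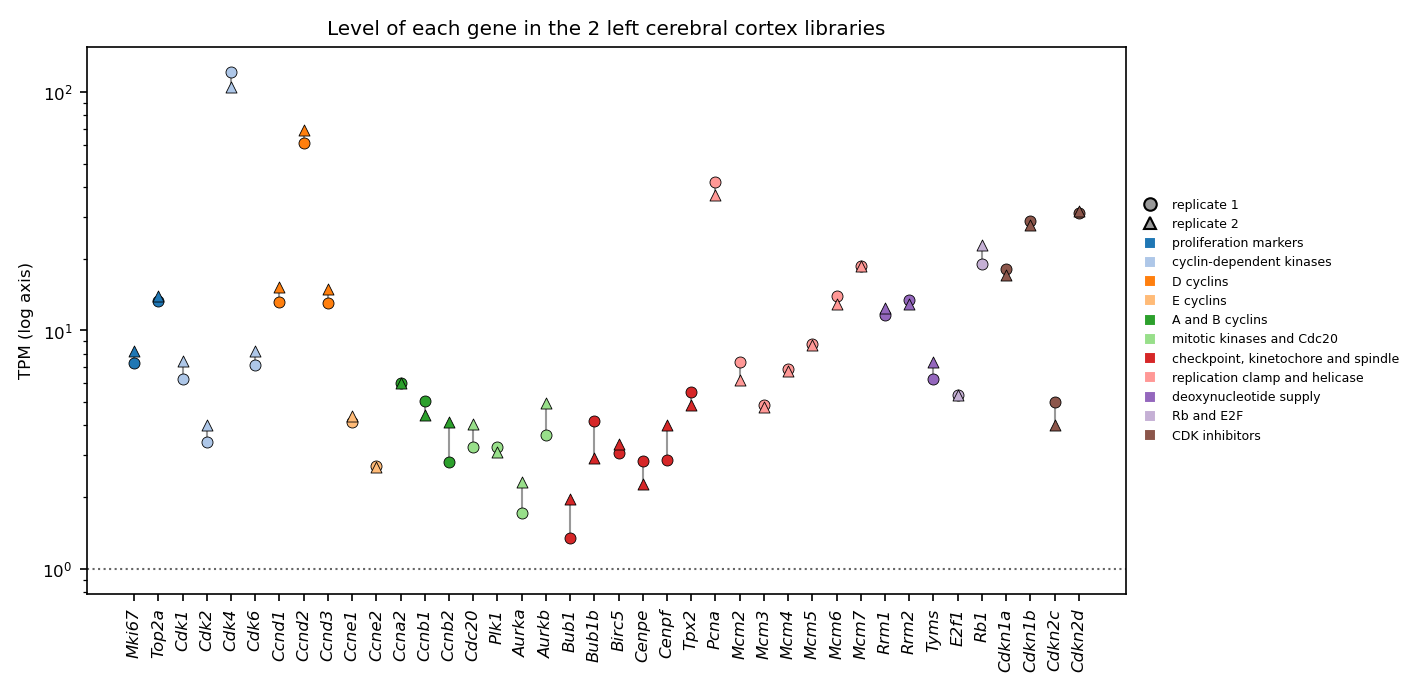
TPM of each of the 40 genes on a log axis, with a circle for replicate 1 and a triangle for replicate 2, coloured by role. The highest gene is Cdk4 at 121.22 and 104.68 TPM and the lowest Bub1 at 1.35 and 1.96 TPM, with the dotted line at the detection level of 1 TPM.

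By role, group medians differed several-fold. The 4 Cdk inhibitors had the highest group median, 22.9 ± 0.742 TPM (SD of the library medians, n = 2), followed by the D cyclins (14.2 ± 1.39 TPM), Rb1 with E2f1 (13.1 ± 1.29 TPM) and the deoxynucleotide supply genes (12.035 ± 0.544 TPM). The proliferation markers were at 10.7 ± 0.569 TPM, the replication clamp and helicase genes at 8.75 ± 0.0707 TPM and the cyclin-dependent kinases at 7.27 ± 0.785 TPM. At the low end were the A and B cyclins (4.76 ± 0.453 TPM), the E cyclins (3.48 ± 0.0813 TPM), the mitotic kinases with Cdc20 (3.41 ± 0.230 TPM) and the checkpoint, kinetochore and spindle genes (3.05 ± 0.117 TPM). These groups hold 2 to 7 genes each, so a group median rests on few genes.

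Promoter sequences were read next, because mitotic and S phase genes are known for different promoter elements. The CHR element (cell cycle homology region, TTTGAA or TTCGAA) with upstream CCAAT boxes is known from genes of G2 and mitosis. E2F sites are known from genes of the G1 to S transition. RefSeq promoter windows on GRCm38.p6, each with 250 bases before and 50 after a transcription start, were found for 32 of the 40 genes. They gave 36 windows, since 4 genes had a pair of starts, out of 32851 windows in all. Mcm4, Rb1, Ccna2, Ccnd1, Aurkb, Ccne2, Ccnd2 and Tpx2 were not matched. Exact letters were searched on both strands. Stretches from 120 bases before to 30 after the start are printed 5′ to 3′ on the gene's strand, with motif matches of either orientation in capitals (ATTGG is CCAAT read on the other strand).

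The first set holds mitotic genes in which a CHR match lies near the start together with CCAAT boxes:
Ccnb2, chr9:70421525-70421674, minus strand: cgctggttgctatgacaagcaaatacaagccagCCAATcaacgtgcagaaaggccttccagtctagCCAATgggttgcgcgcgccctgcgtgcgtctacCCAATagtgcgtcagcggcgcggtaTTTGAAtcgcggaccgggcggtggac
Cdk1, chr10:69352883-69353032, minus strand: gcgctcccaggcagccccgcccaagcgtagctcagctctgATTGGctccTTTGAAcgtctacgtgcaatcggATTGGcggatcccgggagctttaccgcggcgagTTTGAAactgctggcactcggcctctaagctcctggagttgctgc
Cdc20, chr4:118437314-118437463, minus strand: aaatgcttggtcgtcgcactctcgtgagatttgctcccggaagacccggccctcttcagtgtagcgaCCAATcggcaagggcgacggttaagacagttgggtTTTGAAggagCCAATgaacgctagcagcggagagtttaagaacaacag
Bub1, chr2:127831830-127831979, minus strand: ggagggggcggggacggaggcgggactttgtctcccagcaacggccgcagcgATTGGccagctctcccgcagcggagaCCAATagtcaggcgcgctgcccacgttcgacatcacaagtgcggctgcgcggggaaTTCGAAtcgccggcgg

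In Ccnb2, a B cyclin gene, CCAAT matches began at -87, -54 and -21 and a CHR match at 4, counted from 0 at the first transcribed base. Cdk1, the mitotic kinase gene, had CHR matches at -71 and -15. In Cdc20, which encodes an activator of the anaphase-promoting complex, the CHR match at -18 lay between CCAAT matches at -53 and -8. Bub1, a spindle checkpoint kinase gene, had its CHR match at 14.

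The second set holds helicase genes with E2F-type matches:
Mcm6, chr1:128359676-128359825, minus strand: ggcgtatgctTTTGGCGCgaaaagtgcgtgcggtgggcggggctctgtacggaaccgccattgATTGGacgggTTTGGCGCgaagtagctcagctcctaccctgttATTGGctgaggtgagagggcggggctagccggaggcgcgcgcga
Mcm3, chr1:20820283-20820432, minus strand: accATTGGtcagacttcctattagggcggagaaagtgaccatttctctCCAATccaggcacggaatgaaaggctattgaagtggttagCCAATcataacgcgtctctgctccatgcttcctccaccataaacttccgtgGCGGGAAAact

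In Mcm6 the E2F-type letters TTTGGCGC occurred at -110 and -47. In Mcm3, the match at 19 is the reverse complement of TTTCCCGC, and another lay at 38, outside the printed stretch. The third set holds the highest Cdk inhibitor and the highest kinase of the list, for contrast. Neither printed stretch has a match, and Cdk4 had none in its whole window, while Cdkn2d had a CCAAT match at -220:
Cdkn2d, chr9:21291180-21291329, minus strand: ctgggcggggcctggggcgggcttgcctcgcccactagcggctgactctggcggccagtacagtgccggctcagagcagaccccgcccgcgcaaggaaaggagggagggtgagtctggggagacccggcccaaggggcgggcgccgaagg
Cdk4, chr10:127063415-127063564, plus strand: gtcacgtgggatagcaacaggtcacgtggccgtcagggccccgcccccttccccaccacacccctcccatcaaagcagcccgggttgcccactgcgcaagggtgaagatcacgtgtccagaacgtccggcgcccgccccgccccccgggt

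Counted over windows, 12 of 36 (33.3%) held a CHR match, against 19.2% of all windows. For E2F-type letters (TTTCCCGC, TTTGGCGC, TTTGGCGG or TTTCCCGG) the shares were 16.7% and 3.32%, and for CCAAT 72.2% and 37.4%. A CHR match together with CCAAT was found in 33.3% of the cell cycle windows and 7.52% of all. The pair occurred in 10 of 13 genes of mitosis and proliferation (76.9%) and in 2 of the 19 others (10.5%), Mcm2 and Mcm7, a grouping made after the matches were counted. E2F-type matches fell in 4 of 6 clamp and helicase genes with a window (Mcm3, Mcm5, Mcm6 and Mcm7), and besides in Cdk2 and Birc5. The windows of the 3 deoxynucleotide supply genes, Ccne1 and E2f1 held none, and that of E2f1 lay wholly inside the annotated gene. None of 79 matches overlapped a match of another motif class. The cell cycle windows were richer in G and C, with a median of 59% against 52.7%, which changes how often any given letters occur. A match describes letters in a window and is not evidence that a factor binds there.

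**Figure D2:**
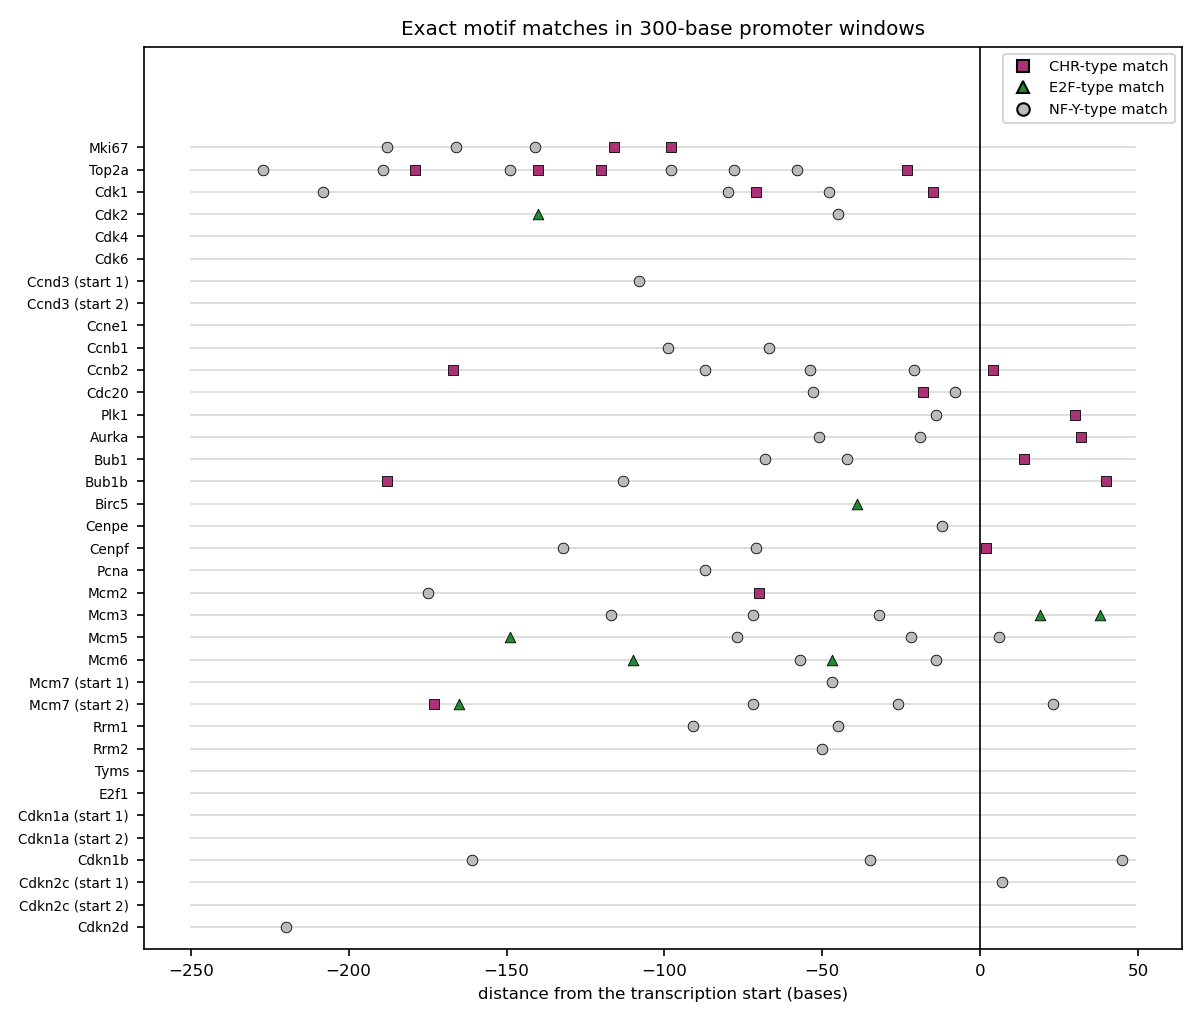
Start positions of exact motif matches in 36 promoter windows, from 250 bases before to 50 after the transcription start, with CHR-type matches as squares, E2F-type matches as triangles and CCAAT (NF-Y-type) matches as circles. CHR squares lie mainly in the rows of proliferation and mitotic genes, and 4 of the 6 genes with E2F triangles encode helicase subunits.

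Among the genes of G1, the D cyclins were led by Ccnd2. Ccnd2 (ENSMUSG00000000184.12, chromosome 6, 127125162 to 127152193) had 60.75 TPM in replicate 1 and 69.11 TPM in replicate 2. Ccnd1 was at 13.2 and 15.16 TPM and Ccnd3 at 13.02 and 14.93 TPM. Both libraries thus gave the same order of Ccnd2 over the rest. On the log2(TPM + 1) scale Ccnd2 exceeded Ccnd1 by 2.12 ± 0.0024 (SD, n = 2) and Ccnd3 by 2.14 ± 0.00076, while Ccnd1 over Ccnd3 was 0.02 ± 0.0016. The differences of Ccnd2 were 2.08 and 2.01 in a second table made by another quantifier. The smallest p that an exact sign-flip test can reach with 2 libraries is 0.5. Pairs were therefore called apart at a log2 ratio of 1 or more in both libraries, with no p. By that rule 5 of 14 paralog or partner pairs were apart, and also 5 in the second table.

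The kinases of the D cyclins were at unlike levels. Cdk4 (ENSMUSG00000006728.12, chromosome 10, 127063534 to 127067920) was at 121.22 and 104.68 TPM, and Cdk6 at 7.16 and 8.17 TPM. Cdk4 over Cdk6 was 3.72 ± 0.27 on the log2(TPM + 1) scale, the widest of the 14 pairs. The size of this difference rested in part on transcripts that are not protein-coding, as described further on: with protein-coding transcripts alone it was 1.55 ± 0.18, and 2.58 with those transcripts in the second table. Cdk2, the partner of cyclins E and A, was at 3.42 and 4 TPM, and Cdk1, the kinase of mitotic entry, at 6.27 and 7.48 TPM. Cdk2 over Cdk1 was -0.74 ± 0.031 and was not apart by the rule.

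The Cdk inhibitors were high apart from Cdkn2c. Cdkn2d (ENSMUSG00000096472.2, chromosome 9, 21288410 to 21291407), which encodes p19, an inhibitor of Cdk4 and Cdk6 known from postmitotic neurons, was at 31.09 and 31.59 TPM. Cdkn2c, which encodes the related p18, was at 5.03 and 4.02 TPM, and Cdkn2d exceeded it by 2.56 ± 0.20 on the log2(TPM + 1) scale. Cdkn1b, which encodes p27 (ENSMUSG00000003031.14, chromosome 6, 134920401 to 134925513), was at 28.67 and 27.56 TPM. Cdkn1a, the p53 target that encodes p21, was at 18.09 and 17.1 TPM. Cdkn1b over Cdkn1a was 0.65 ± 0.015 and was not apart. Cdkn2d and Cdkn1b lay above the median of detected protein-coding genes in both libraries, and Cdkn1a in replicate 1 only.

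Rb1, the brake on E2F, was at 19.06 and 22.73 TPM, and E2f1, an activating E2F, at 5.37 and 5.36 TPM, with Rb1 over E2f1 at 1.78 ± 0.17. The E cyclins, partners of Cdk2 at the entry into S phase, were low: Ccne1 was at 4.14 and 4.39 TPM and Ccne2 at 2.71 and 2.69 TPM. Ccne2 over Ccne1 was -0.51 ± 0.054, the same direction in both libraries but not apart. With protein-coding transcripts alone it was -0.97 in replicate 1 and -1.14 in replicate 2, wider but still not apart by the rule. The mean with those transcripts in the second table was -1.16.

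Replication genes covered a wider range. Pcna, the sliding clamp of the DNA polymerases (ENSMUSG00000027342.14, chromosome 2, 132249162 to 132253314), was at 41.88 and 36.85 TPM. The 6 subunits of the Mcm2 to Mcm7 helicase work as a ring with 1 copy of each, yet their RNA levels were not equal. Mcm7 was the highest at 18.67 and 18.68 TPM, then Mcm6 at 13.89 and 12.92 TPM and Mcm5 at 8.8 and 8.7 TPM. Mcm2 was at 7.37 and 6.19 TPM, Mcm4 at 6.93 and 6.74 TPM, and Mcm3 was the lowest at 4.89 and 4.8 TPM. Mcm2 and Mcm4 changed places between the libraries, so their order is within the spread. The highest subunit exceeded the lowest 3.82 times in replicate 1 and 3.89 times in replicate 2, and 5.48 and 5.39 times in the second table. Retained-intron transcripts held 19.3% and 27.8% of the Mcm7 level. With protein-coding transcripts alone Mcm7 was at 14.3 TPM, Mcm6 at 13.0 TPM and Mcm3 at 4.445 TPM, a narrower lead in the same order. In the second table these coding levels were 25.6, 17.6 and 6.39 TPM. Mcm7 overlaps the opposite-strand genes Cops6 (70.69 and 65.08 TPM) and Ap4m1 (17.65 and 16.47 TPM), and the sources used here do not state that counting used the strand.

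Of the genes that supply deoxynucleotides, Rrm1 and Rrm2, the subunits of ribonucleotide reductase, were at 11.65 and 12.42 TPM and at 13.41 and 12.92 TPM. Their log2(TPM + 1) ratio was -0.12 ± 0.096, and in the second table it was 0.25, so over all transcripts neither was higher in both tables. With protein-coding transcripts alone the ratio was -0.21, and -0.31 with those transcripts in the second table. Tyms, which makes thymidylate, was at 6.29 and 7.41 TPM.

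The proliferation markers stood above most mitotic genes. Top2a, the topoisomerase that untangles chromosomes (ENSMUSG00000020914.17, chromosome 11, 98992943 to 99024189), was at 13.3 and 14 TPM. Mki67, the coat protein of mitotic chromosomes (ENSMUSG00000031004.8, chromosome 7, 135689784 to 135716361), was at 7.3 and 8.21 TPM, from 1412 and 1513 counts.

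Cyclins of S phase to mitosis were lower than the D cyclins. Ccna2 was at 6.03 and 6.01 TPM and Ccnb1 at 5.08 and 4.44 TPM. Ccnb2 was at 2.8 and 4.12 TPM, from 78 and 109 counts. Ccnb1 over Ccnb2 was 0.68 in replicate 1 and 0.09 in replicate 2, and -0.06 as a mean with protein-coding transcripts alone, so no order of the B cyclins can be given.

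Mitotic kinase genes were among the lowest. Plk1, the Polo-like kinase, was at 3.24 and 3.09 TPM, and Cdc20 at 3.25 and 4.05 TPM. Aurkb, the kinase of the chromosomal passenger complex, was at 3.65 and 4.95 TPM, and Aurka, the kinase of the spindle poles, at 1.72 and 2.31 TPM. Aurka over Aurkb was -0.81 ± 0.051, and -1.06 with a pseudocount of 0.1 in place of 1, where it met the rule for being apart. The difference was smaller in other runs, at -0.47 in the second table and -0.42 with protein-coding transcripts alone.

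In the checkpoint, kinetochore and spindle group, Tpx2, which activates Aurora A on the spindle, was highest at 5.52 and 4.87 TPM. Birc5, the passenger protein survivin, was at 3.08 and 3.35 TPM. The kinetochore genes Cenpf and Cenpe were at 2.86 and 4.01 TPM and at 2.83 and 2.28 TPM. The checkpoint genes Bub1b and Bub1 were at 4.19 and 2.92 TPM and at 1.35 and 1.96 TPM. Bub1 over Bub1b was -1.14 in replicate 1 and -0.41 in replicate 2, and Cenpf over Cenpe 0.01 and 0.61. Each pair kept its direction in both libraries, but the size varied and neither pair was apart. With protein-coding transcripts alone Bub1 over Bub1b was -0.70 and -0.67, and Cenpf over Cenpe 0.39 and 0.40. The means with those transcripts in the second table were -0.77 and 0.12.

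The transcripts behind each gene level were examined, since a gene's TPM adds up all its annotated transcripts. Of 39 genes with several transcripts, the median share of TPM on transcripts annotated as protein-coding was 93.0% in replicate 1 and 91.5% in replicate 2, against 86.8% and 84.8% over 11873 detected nuclear protein-coding genes. In both libraries the share was under 50% for Cdk4 and Tyms, which is 5.13% of the 39 against 9.82% of the background genes.

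For Cdk4 only 20.5% and 22.3% of TPM lay on protein-coding transcripts. The leading transcript in both libraries and both tables was Cdk4-209, a retained-intron transcript with an effective length of 369 bases. It held 40.4% and 32.5% of the gene's TPM, from 351 and 232 counts. The coding transcripts Cdk4-204 and Cdk4-201 were at 17.33 and 17.98 TPM and at 7.52 and 5.41 TPM. Counted on protein-coding transcripts alone, Cdk4 was at 24.1 ± 1.03 TPM and moved from the first to the fifth place of the list, and Ccnd2 was first at 57.9 ± 4.11 TPM. In the second table coding Cdk4 was at 55.5 TPM, second after coding Ccnd2 at 79.1 TPM. Cdk4 also overlaps Tspan31, a gene on the opposite strand at 28.6 and 24.79 TPM, over 641 of its 4387 bases. A detected gene on the opposite strand overlapped 9 of the 40 genes, and the share over all genes was not counted.

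Tyms depended on the table. Its protein-coding share was 37.8% and 20.3% in the first tables but 66.1% and 73.9% in the second, and its counts were 178 and 155 in the first tables and 428 and 593 in the second. No other gene of the list had such a gap in counts. Birc5, which came next, had 68 and 69 counts in the first tables and 106 and 117 in the second. Part of the Top2a level also lay outside coding transcripts, with 62.4% and 56.9% on Top2a-201. Ccne2 had a protein-coding share of 53.3% and 44.2%.

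**Figure D3:**
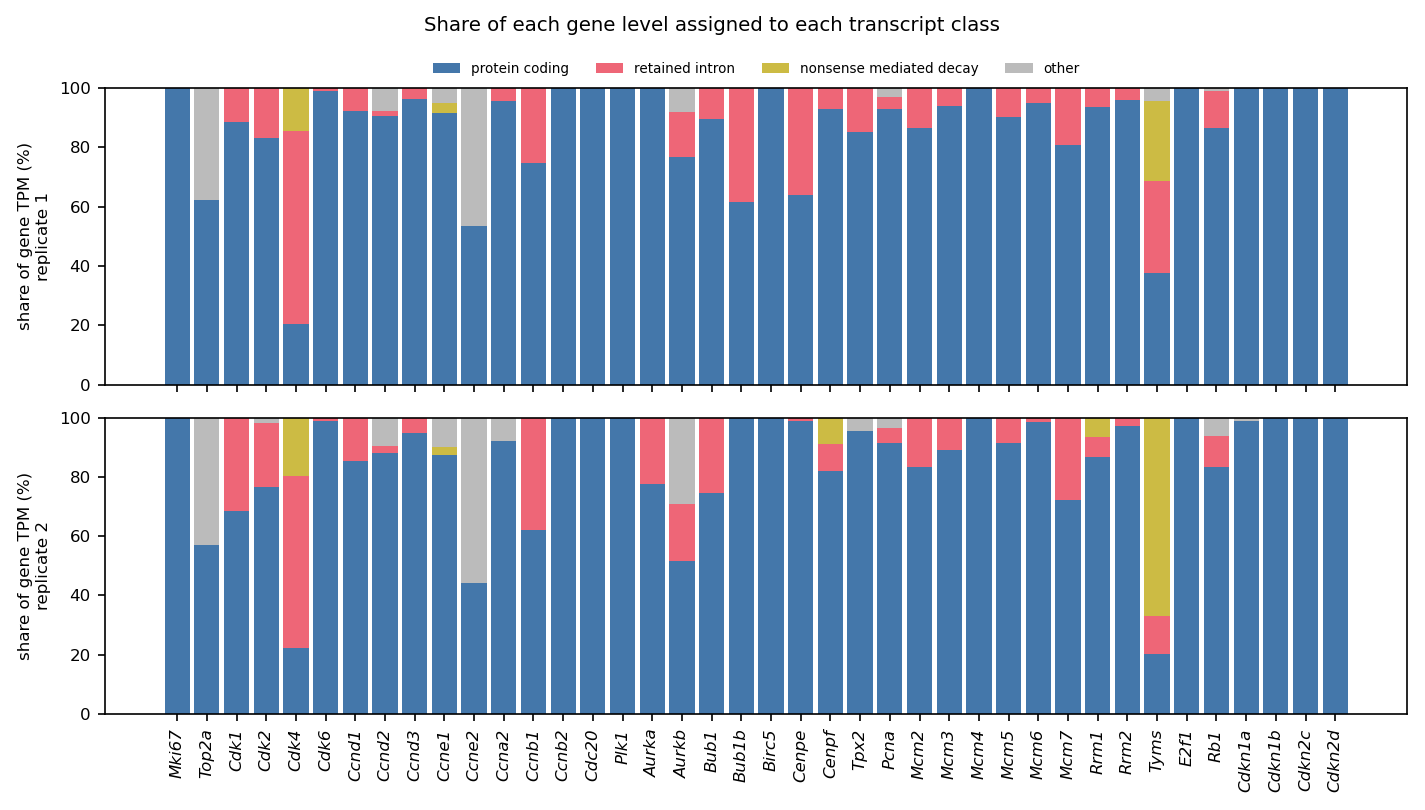
Share of each gene's TPM, in percent, on transcripts annotated as protein-coding, retained intron, nonsense-mediated decay or other, as stacked bars per library. Most bars are nearly all protein-coding, and Cdk4 at 20.5% and 22.3% and Tyms at 37.8% and 20.3% stand out.

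For several low genes the TPM moved between the libraries while the counts did not. Aurkb had 109 counts in each library but 3.65 and 4.95 TPM. Its protein-coding share was 76.8% and 51.5%, the rest lying on shorter transcripts. Bub1b had 190 and 193 counts and 4.19 and 2.92 TPM. In replicate 1, 5.13 and 6.33 of its counts were placed on the retained-intron transcripts Bub1b-202 and Bub1b-203, which held 0.47 and 1.14 TPM, and in replicate 2 none were. The log2 ratio of TPM differed from that of counts by 0.4 or more, a threshold set after the values were seen, in 5 genes: Aurkb, Bub1b, Cenpe, Cenpf and Tyms. This is 12.5% of the 40 genes, against 2.48% of detected nuclear protein-coding genes. All 5 lay between 1 and 10 TPM, where the shares were 19.2% and 6.36%. The dominant transcript was the same in both libraries for 34 of 39 genes (87.2%, background 88.1%), the exceptions being Cdk2, Aurka, Tpx2, Mcm5 and Tyms. It was the same in both tables for 33 of 39 (84.6%, background 75.8%).

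Counts were then compared between the libraries. For each gene the rounded expected counts entered a two-sided exact binomial test with TMM-scaled totals, and p-values were adjusted by Benjamini-Hochberg over all 18492 genes with a summed count of 20 or more. A gene was called if the adjusted p was under 0.05 and the log2 ratio was 1 or more in size. This compares these libraries, not conditions. None of the 40 genes was called, against 525 genes, or 2.84%, of all tested. Without the minimum ratio 4 of the 40 (10%) had an adjusted p under 0.05, against 24.9% of all tested, and at an unadjusted p under 0.05 there were 7 (17.5%, background 34.1%). The median size of the log2 count ratio was 0.12 over the 40 genes and 0.12 over detected genes.

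All of the 4 genes (10% of the 40) were lower in replicate 2, a direction and threshold met by 13.2% of all tested genes. Pcna had 1111 and 924 counts, a scaled ratio of 0.819 (exact 95% interval 0.750 to 0.895, adjusted p 9.89e-05). Mcm2 had 422 and 339 counts, a ratio of 0.791 (0.684 to 0.915, adjusted p 0.00889). These 2 genes kept an adjusted p under 0.05 with other scaling and in the second table. Cdk4, with 1779 and 1645 counts, had a ratio of 0.911 (0.851 to 0.975, adjusted p 0.0306), and Cdkn1b, with 1562 and 1420 counts, a ratio of 0.895 (0.833 to 0.963, adjusted p 0.0150). With DESeq2 size factors the adjusted p was 0.0782 for Cdk4 and 0.0401 for Cdkn1b, and with totals alone 0.198 and 0.109. Rb1 was higher in replicate 2 with an adjusted p of 0.0666 under TMM, 0.0286 with DESeq2 size factors and 0.00796 with totals alone, and Ccnd2 reached 0.00817 with totals alone. Those 4 genes therefore passed or missed the threshold by the choice of scaling. In the table of the other quantifier, 8 of the 40 genes (20%) had an adjusted p under 0.05, against 30.4% of all genes tested there. Cdk4 and Cdkn1b were among the 8, with log2 ratios of -0.21 and -0.22 there. Tyms was too, with a log2 ratio of 0.39 there and -0.22 in the first table.

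By direction, 28 of the 40 genes had a lower scaled count in replicate 2, 26 with DESeq2 size factors, 24 with totals alone and 29 in the second table, while TPM was lower in 19. The median log2 count ratio was -0.10, against -0.01 over all tested genes and -0.03 over detected nuclear protein-coding genes. The share of all tested genes with a lower count in replicate 2 was not counted. The counts of lower genes given here therefore stand without a background share. All 7 clamp and helicase genes, all 4 Cdk inhibitors and both E cyclins had lower counts in replicate 2. This held under each scaling and in the second table. Their medians under TMM scaling were -0.14, -0.17 and -0.19. The 3 deoxynucleotide genes were lower under each scaling and 2 of 3 in the second table. None of the 3 D cyclins was lower under any scaling of the first table, and 2 of 3 were in the second. Of the genes in these groups, the 3 named above, Pcna, Mcm2 and Cdkn1b, passed the adjusted threshold under TMM scaling.

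Marker lists moved between the same libraries. Of the intermediate progenitor markers, Eomes fell from 155 to 35 counts (2.44 and 0.61 TPM) and was called, Insm1 had 433 and 320 counts, and all 4 listed markers were lower in replicate 2. Choroid plexus and ependyma markers had 4 of 5 called, among them Ttr at 206.4 and 1.94 TPM, and blood markers 3 of 3. None of the 6 radial glia, 5 oligodendrocyte precursor and 4 young neuron markers was called. Without the minimum ratio, the adjusted p of the exact binomial test was under 0.05 for some of them (background 24.9%). These were all 4 young neuron markers and the radial glia markers Fabp7, Slc1a3 and Vim, all lower in replicate 2. The precursor markers Olig2 and Gpr17 were also among them, both higher. Of the remaining radial glia markers, Hes5 (log2 ratio 0.07) and Sox2 (0.03) were higher and Nes (-0.04) lower. The remaining precursor markers, Pdgfra (-0.04), Cspg4 (-0.10) and Sox10 (-0.17), were all lower. The radial glia and precursor lists thus held markers of both directions. The part of these differences in the counts of the cell cycle genes was not tested.

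**Figure D4:**
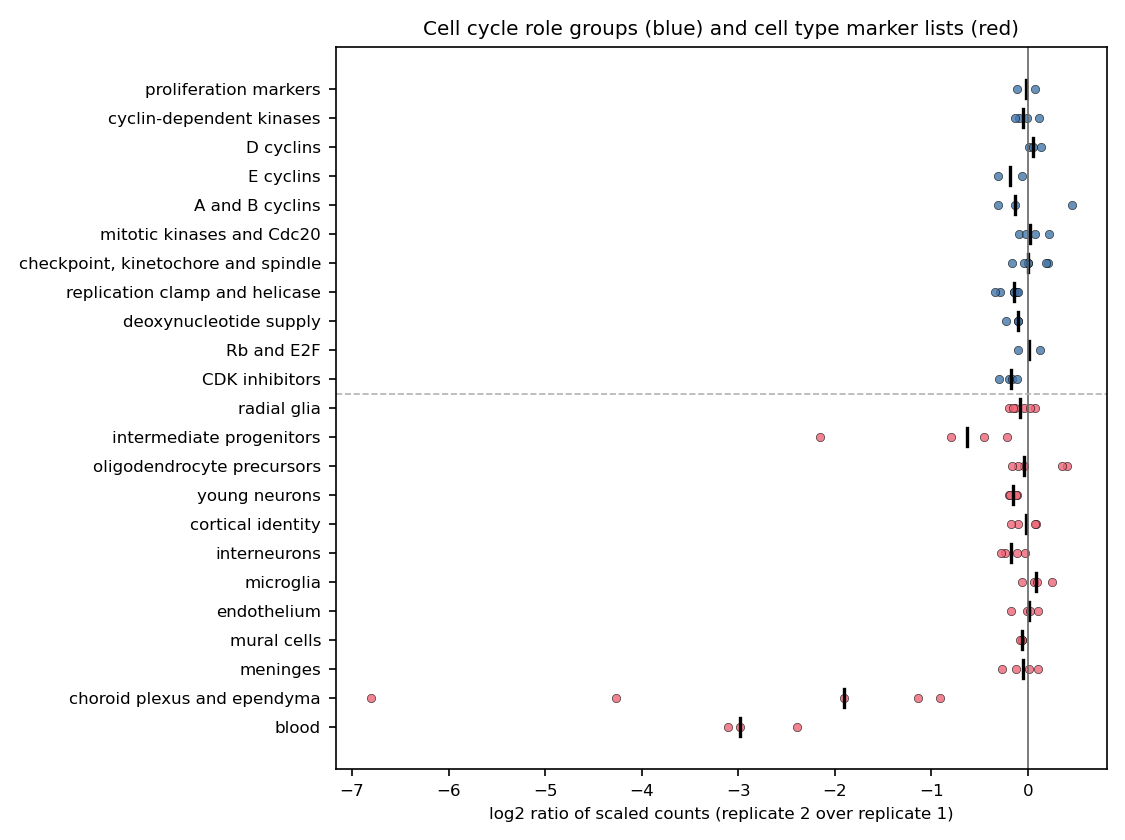
Log2 ratio of scaled counts, replicate 2 over replicate 1, with 1 point per gene and a black bar at the median, for the 11 role groups in blue and 12 cell type marker lists in red. The cell cycle genes lie near 0, with medians of -0.14 for clamp and helicase, -0.17 for Cdk inhibitors and -0.19 for E cyclins. Eomes of the intermediate progenitor list is at -2.15 and Ttr of the choroid plexus list at -6.81.

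**Figure D5:**
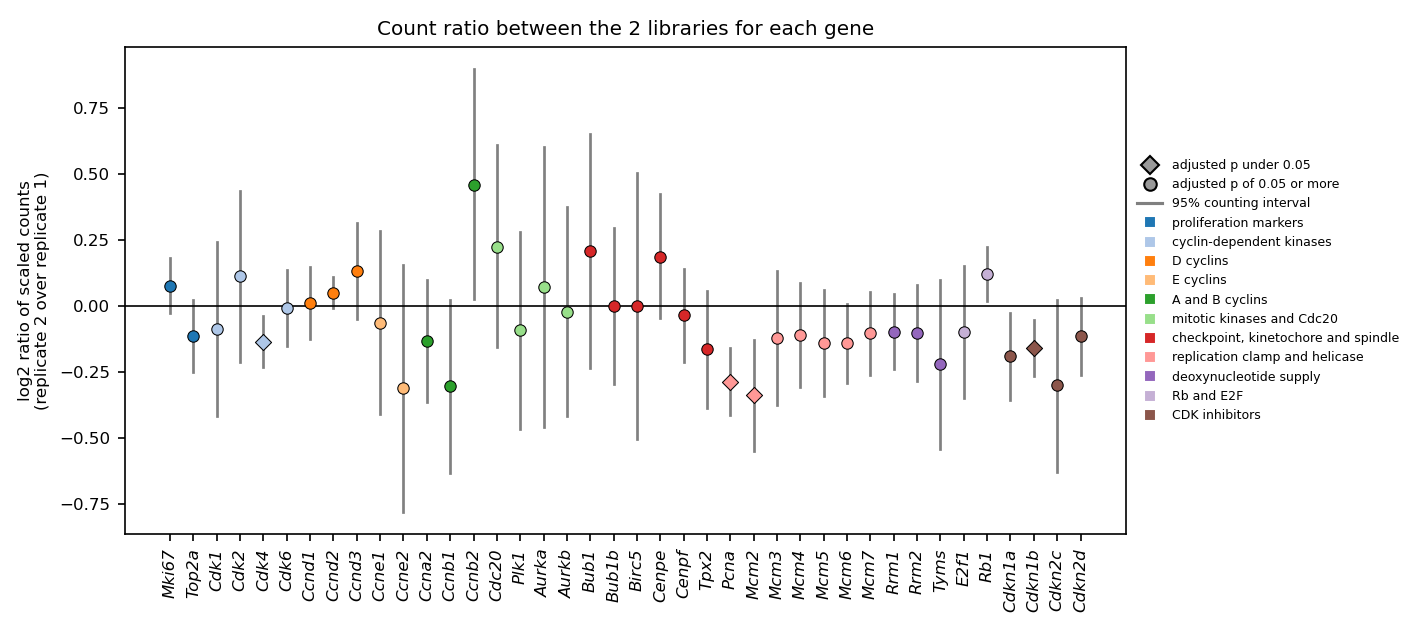
Log2 ratio of scaled counts, replicate 2 over replicate 1, for the 40 genes with exact 95% intervals, coloured by role, with diamonds for an adjusted p under 0.05. All 40 lie between -1 and 1, and the 4 diamonds, Pcna (-0.29), Mcm2 (-0.34), Cdk4 (-0.13) and Cdkn1b (-0.16), lie below 0.

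Further genes of the same processes, in 6 lists of 109 genes, showed similar levels. All 109 were annotated, 101 were detected, the median was 5.84 TPM, and none of 107 tested was called between the libraries. At an adjusted p under 0.05 without a minimum ratio there were 7 (6.54%, background 24.9%), 4 lower and 3 higher in replicate 2. The largest of these were Cdc7, the kinase that fires origins, with 361 and 582 counts (log2 ratio 0.67, adjusted p 1.45e-10 in the exact binomial test), and Fen1, the flap endonuclease, with 336 and 232 counts (-0.56, adjusted p 8.14e-05). They moved in opposite directions.

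Origin licensing and firing genes had a median of 3.85 TPM with 14 of 17 detected. The origin recognition subunits were unequal: Orc4 was at 32.8 TPM, Orc3 at 32 TPM and Orc6 at 22.2 TPM, while Orc1 was at 0.44 TPM. Cdc6, which loads the helicase together with Orc1, was at 0.875 TPM. Replication fork genes had a median of 7.96 TPM with 20 of 20 detected, from the clamp loader gene Rfc2 at 43.8 TPM, the single-strand binding gene Rpa1 at 23.1 TPM and the polymerase delta gene Pold2 at 14.6 TPM down to the polymerase epsilon genes Pole at 3.58 TPM and Pole2 at 1.26 TPM. Nucleotide supply genes had a median of 9.34 TPM (5 of 6 detected), with Dut, which removes dUTP, at 21.4 TPM, Dck at 10.3 TPM and Rrm2b at 9.96 TPM, and with Tk1 lower at 4.25 TPM.

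G1 regulators had a median of 9.07 TPM (23 of 26 detected). The highest were the cyclin gene Ccni at 133.71 TPM, Cdk5, a kinase of postmitotic neurons, at 63.9 TPM and the E2F partner gene Tfdp1 at 40.8 TPM. E2f2 was at 0.68 TPM and Cdkn2a at 0.265 TPM. G2 and mitotic entry genes had a median of 3.45 TPM (15 of 16 detected), with Lin37 at 15.8 TPM, Cdc25b at 13 TPM and Lin54 at 8.65 TPM, and with Chek2 at 1.18 TPM and Ccnb3 at 0.02 TPM. Spindle, kinetochore and cytokinesis genes had a median of 4.37 TPM (24 of 24 detected). Fzr1, which holds the anaphase-promoting complex active in G1 and in neurons, was at 54.5 TPM, Cdc27 of that complex at 33.5 TPM and Incenp at 13.2 TPM, while Ndc80 was at 1.87 TPM and Hmmr at 1.52 TPM. The 2 lists of mitosis and mitotic entry and the list of origin licensing and firing had the 3 lowest medians of the 6 lists.

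The quantifiers were compared gene by gene after rescaling nuclear protein-coding genes to the same sum. A gene was called apart at a log2(TPM + 1) ratio of 1 or more in size, of the same sign in both libraries. None of the 40 genes was apart, against 9.71% of all genes and 2.83% of protein-coding genes, and no test applies to these tables of the same reads. The widest differences were in Cdk6, at -0.48 for the second table over the first, and Bub1b at -0.44. Posterior SDs above 0, which mark reads shared with other features, were deposited for 7 of the 40 genes in both libraries (17.5%, background 16.6%). The largest was that of Pcna, 8.08 and 8.03 counts, and the processed pseudogene Pcna-ps2 was listed at 5.35 and 5.72 TPM. In none of the 40 genes did the posterior SD exceed the Poisson value 1.5 times, against 162 of 13124 detected nuclear protein-coding genes. Such genes were thus rare in the background too.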

How the data were processed

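Each of the 2 libraries had 3 deposited tables on mm10 with the GENCODE M21 annotation, per the deposited file descriptions; no source used here names the aligner or the quantifiers. Per the file headers, the gene table and first transcript table give expected counts, TPM, posterior means and SDs of counts, and for transcripts the percent of the gene's TPM; the column names are those of RSEM. The second transcript table, as deposited, gives estimated counts and TPM under the column names of kallisto, and was summed to genes. TPM is scaled by the authors over all features, spike-ins included. Spike-ins, phiX and numbered entries stayed out of gene totals and tests.

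Expected counts were rounded to whole numbers for the exact binomial test (scipy 1.17.1), with TMM factors from edgeR 4.0.16 and size factors from DESeq2 1.42.0 (R 4.3.3). For log2 ratios 0.5 was added to each count, intervals are exact Clopper-Pearson at 95%, and the pseudocount for TPM was 1. The test was tested on simulated counts. Gene symbols, coordinates and transcript classes came from GENCODE M21, and promoters from RefSeq on GRCm38.p6. Other steps ran in Python 3.11.15 with pandas 2.3.3, numpy 2.4.6 and matplotlib 3.10.9. The p-values measure counting error between these libraries only. CAST/EiJ variants were not modelled.

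The genes and lists were chosen with earlier results of these data known. Named are all 40 genes, the 3 highest and 2 lowest of each further list, genes called between the libraries, and a few others chosen after their values were seen, such as Insm1, Cdc7 and Fen1. A few values under this rule are left out here. Alternatives were the other quantifier, each library alone, other scaling, filters, pseudocounts, detection thresholds, strands and transcript classes.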

Additional observations from a re-analysis of the deposited data

How the results depend on the processing

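With either library left out, the median level of the 40 genes was 6.28 to 6.47 TPM and the detected count stayed at 40. Pairs apart numbered 5 to 6, since Bub1 over Bub1b met the rule in replicate 1 alone. Genes apart between quantifiers were 2317 to 2722, against 1968, and none of them was among the 40. Absolute TPM depended on the table and scale. The median level was 8.91 TPM in the second table, 12.6 TPM with nuclear protein-coding genes rescaled to 1000000 TPM in sum, and 5.46 TPM with protein-coding transcripts alone, the last chosen after seeing the data. In the second table the group medians were 32.7 TPM for Cdk inhibitors, 19.7 for D cyclins, 19.4 for deoxynucleotide supply, 18.6 for Rb1 and E2f1, 15.7 for proliferation markers, 12.2 for clamp and helicase, 9.37 for cyclin-dependent kinases, 6.99 for A and B cyclins, 5.33 for mitotic kinases with Cdc20, 5.14 for E cyclins and 4.21 for checkpoint, kinetochore and spindle genes. Rescaled, in the same order, they were 45.0, 27.9, 23.7, 25.8, 21.1, 17.2, 14.3, 9.38, 6.71, 6.86 and 6.01 TPM.

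With no minimum ratio, 4 of the 40 genes and 4596 of all genes passed the library test, against 0 and 525; other scaling and filters gave 365 to 592 genes, 660 genes came from the second table, and none of the 40 was called in any of these. On the gene strand alone no gene had TTTCCCGC, against 3 on both strands, and 3 had an E2F-type match, against 6. None of the 5 pairs called apart changed sign under any alternative run. Of the other pairs, Rrm1 over Rrm2 went from -0.12 to 0.25 and Ccnd1 over Ccnd3 from 0.02 to -0.07 in the second table, and with protein-coding transcripts alone Ccnd1 over Ccnd3 was -0.08 and Ccnb1 over Ccnb2 went from 0.38 to -0.06. The cause was not tested. No paired analysis was possible because there is 1 group only, with nothing to pair. Low counts limit the mitotic genes: Aurka rested on 60 and 64 counts, and its scaled count ratio of 1.05 had an exact 95% interval of 0.727 to 1.52.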
